A study of Mus musculus with 3 samples.

Results

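Granzymes are serine proteases best known from the cytotoxic granules of T cells and natural killer (NK) cells. They are stored as mature enzymes on the proteoglycan serglycin, and perforin lets them enter a target cell. Granzyme A cuts after basic residues, granzyme B cuts after aspartate and activates caspases, and the enzymes encoded by Gzmc to Gzmg belong to a rodent branch of the family whose substrates are less well defined. The genes Gzma, Gzmb, Gzmc, Gzmd, Gzme, Gzmf and Gzmg were followed here through osteoclast formation. They were selected because the Gzmd signal rose late in the course, so the levels of Gzmd and of its family are given as a description. The 7 genes, out of 12393 with a probe set of their own, carried 9 of the 22626 gene probe sets. Of these 9, 8 were annotated to 1 gene and 1 was annotated to both Gzme and Gzmd.

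The cultures were C57/BL6 mouse bone marrow cells, and each first received human M-CSF, at 50 ng/ml over 3 days, which turns them into macrophages. Human RANKL, the cytokine that drives macrophages to become bone-resorbing osteoclasts, was then present at 150 ng/ml for 0 h (labelled precursor), 24 h (labelled differentiating precursor) or 72 h (labelled osteoclast). There was 1 Affymetrix array per time. No RANKL-free culture of the later ages was measured, and RANKL and longer culture cannot be told apart. In RNA from whole cultures, fewer cells of a type and less RNA per cell cannot be told apart either.

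The deposited signals had medians of 36.7 at 0 h, 60.9 at 24 h and 62.7 at 72 h over the gene probe sets, a shift of 0.73 and 0.77 on the log2 scale at 24 and 72 h. Signals were therefore brought to a common median, and each value below is such a scaled signal unless it is called deposited. A scaled signal of 29.6, the 40th percentile of all values, served as a floor: a value under it was treated as not measured, and a fold against it is written "at least". A gene was called higher or lower at 2-fold. With 1 array per time there is no test, no p-value and no SD between cultures, and precision is limited by having 3 arrays. The technical error above the floor, as a log2 value from pairs of probe sets of the same gene, was 0.41 when 24 h was set against 0 h. It was 0.49 for the 72 h array against 0 h, and 0.36 against 24 h. Where both probe sets of a pair were under the floor on both arrays, these errors were 1.53, 1.53 and 1.47.

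The labelled cell states were set beside markers. These lists were chosen with earlier results of these data known, so they are no independent check of the labels. All 12 macrophage markers exceeded the floor on the 0 h array and 11 on each later one. At 72 h 10 of the 12 were lower than at 0 h, beside 12.8% of all measured genes. On the deposited scale 8 were lower. Of 11 osteoclast markers with a probe set, 8 exceeded the floor on the 0 h array, 9 on the 24 h array and 11 on the 72 h array. Against 0 h, 6 of the 10 measured were higher at 24 h and all 11 at 72 h, beside 13.2% and 12.5% of all measured genes.

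Gzmb to Gzmg lie together on mouse chromosome 14, while Gzma lies on chromosome 13. In the RefSeq order the cluster reads Gzme, Gzmd, Gzmg, Gzmn, Gzmf, Gzmc and Gzmb. The 250 bases before the annotated starts of Gzmd and Gzme are shown because the probe sets annotated to these neighbouring genes carried the late signal. Those of Gzmg are shown because it is the next gene in the row and had a low signal. The sequences are from RefSeq (GRCm38.p6) and run 5′ to 3′ on the minus strand, at chr14:56132594-56132843 for Gzmd, chr14:56120626-56120875 for Gzme and chr14:56159580-56159829 for Gzmg. Capitals in the Gzmd and Gzme lines mark bases that differ between these genes in a global alignment or have no partner in it, and capitals in the Gzmg line mark the same against Gzmd.
Gzmd: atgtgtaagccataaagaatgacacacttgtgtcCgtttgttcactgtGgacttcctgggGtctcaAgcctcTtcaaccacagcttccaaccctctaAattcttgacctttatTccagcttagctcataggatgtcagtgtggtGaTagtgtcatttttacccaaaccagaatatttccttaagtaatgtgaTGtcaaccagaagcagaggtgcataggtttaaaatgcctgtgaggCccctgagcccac
Gzme: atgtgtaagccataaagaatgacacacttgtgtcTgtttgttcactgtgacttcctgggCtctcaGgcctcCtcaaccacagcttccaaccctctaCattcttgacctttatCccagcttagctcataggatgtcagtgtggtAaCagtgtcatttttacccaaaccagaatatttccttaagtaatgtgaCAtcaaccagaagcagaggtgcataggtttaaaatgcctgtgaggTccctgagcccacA
Gzmg: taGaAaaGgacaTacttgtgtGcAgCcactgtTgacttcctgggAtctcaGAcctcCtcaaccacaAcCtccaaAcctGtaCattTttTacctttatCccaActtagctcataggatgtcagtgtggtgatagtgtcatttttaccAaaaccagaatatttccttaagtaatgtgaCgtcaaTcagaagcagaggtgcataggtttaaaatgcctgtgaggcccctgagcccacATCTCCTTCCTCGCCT
The Gzmd and Gzme windows shared 238 of 250 bases (95.2%). Gzmd shared 210 bases (84%) with Gzmg, whose last run of capitals lies past the end of the Gzmd window because the annotated starts are offset. The 10 pairs among Gzmc, Gzmd, Gzme, Gzmf and Gzmg had identities of 79.2% to 95.2%. The 18 other pairs, which involve Gzma, Gzmb or Gzmn, had 55.6% to 62.4%.

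A set of 7 short motifs of osteoclast and lymphocyte transcription factors were searched on either strand of these windows, and the share of all 32851 RefSeq windows of the same length that hold each is given beside it. TGTGGT, the RUNX letters, occurred in all 7 member windows, at 2 places in each except Gzma with 1, against 14.0% of all windows. It did not occur in the window of Gzmn, the cluster gene outside the selected set. GGAAA, the core letters of NFAT, occurred once in Gzmd, Gzme, Gzmf and Gzmg and at 2 places in Gzma, against 55.6% of all windows. TGACGTCA, the cyclic AMP response element, was in the windows of Gzmc, Gzmf and Gzmg and not in those of Gzmd or Gzme, against 1.55% of all windows. The AP-1 letters TGANTCA were found in Gzmb alone (6.75% of all windows) and the MITF letters CATGTG in Gzmc alone (12.3%). GAGGAA, an ETS motif of the PU.1 type that can overlap the NFAT letters, was in Gzmf, Gzmg and also Gzmn (23.3%). Its match in Gzmg lies in the last run of capitals, past the end of the Gzmd window. TTCNNNGAA, the STAT letters, was in none of the 7 members (7.02%). The windows of Gzmc to Gzmg share 79.2% to 95.2% of their bases pair by pair, so their matches cannot be counted as separate occurrences. The motifs were chosen with the sequences in view, so nothing is read from the shares.

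The probe sets of Gzmd were dark for the first day and bright at 72 h. Probe set 1420343_at, annotated to Gzmd, had scaled signals of 7.93 at 0 h, 12.5 at 24 h and 765 at 72 h. Probe set 1420344_x_at, also annotated to Gzmd, had 10.4 at 0 h, 6.34 at 24 h and 904 at 72 h. On each of these probe sets the 72 h array stood above both earlier arrays. At 72 h Gzmd was at least 25.9-fold higher than at 24 h and at least 25.9-fold higher than at 0 h by 1420343_at, the probe set that stands for the gene, since both earlier arrays were under the floor. By 1420344_x_at it was at least 30.6-fold higher in each comparison.

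The probe sets annotated to Gzme, the neighbour of Gzmd, had the same course. Probe set 1450171_x_at, annotated to Gzme, had 24.0 at 0 h, 19.8 at 24 h and 645 at 72 h. That is at least 21.8-fold higher at 72 h than at 24 h and than at 0 h. Probe set 1421227_at, annotated to both Gzme and Gzmd, had 31.2 at 0 h, 24.1 at 24 h and 971 at 72 h. It was 31.1-fold higher at 72 h than at 0 h, with both arrays above the floor, and at least 32.9-fold higher than at 24 h.

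Cross-binding limits how far these genes can be told apart. An ending of _x_at in an Affymetrix probe set name means that some of its probes can also bind transcripts of other genes, and _s_at means that all its probes are shared by several transcripts. Of the 9 probe sets, 1420344_x_at and 1450171_x_at end in _x_at and none ends in _s_at. The 1417898_a_at probe set of Gzma has an ending used for alternative transcripts of 1 gene. Gzmd has 1420343_at, whose name carries no such ending and which was also bright at 72 h. A plain ending does not show that a probe set reads 1 gene, since 1421227_at has one too and is annotated to both genes. Gzme is read only by an _x_at probe set and by the one it shares with Gzmd, so its own signal cannot be told apart from that of Gzmd in these files, and cross-binding to the Gzmd probe sets was not tested. The probe sequences were not used here.

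**Figure D1:**
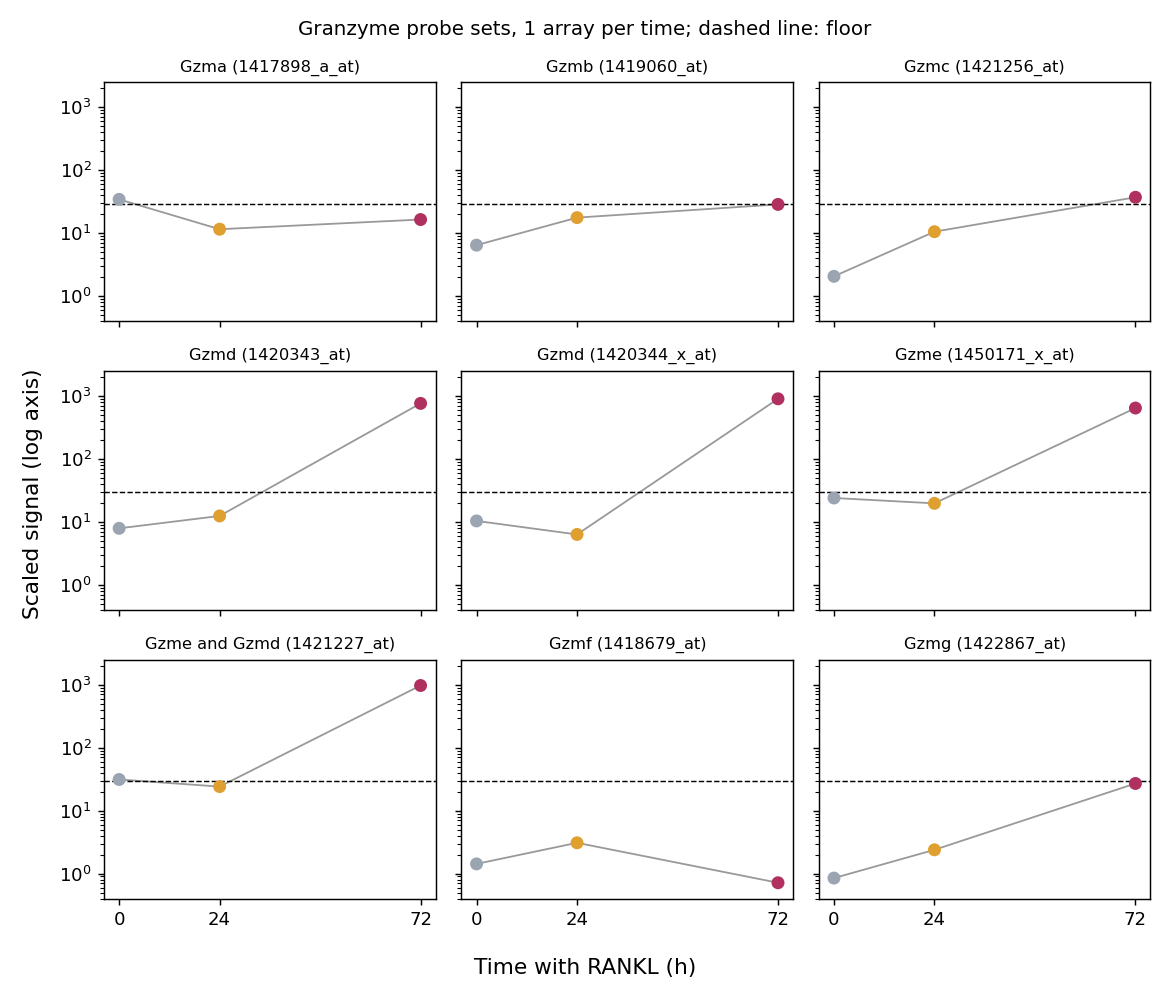
Scaled signal (log axis) of each of the 9 granzyme probe sets against hours with RANKL, 1 point per array, with the floor of 29.6 as a dashed line. The 4 probe sets annotated to Gzmd or Gzme lie between 645 and 971 at 72 h, while the other 5 stay near or under the floor on all arrays.

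The other members stayed near or under the floor. Gzmc had 2.07 at 0 h, 10.6 at 24 h and 37.4 at 72 h, so only the 72 h value was above the floor. Gzmc was at least 1.26-fold higher at 72 h than at either earlier time, a lower bound that does not reach the 2-fold limit and does not show a change under it. Gzmb had 6.49 at 0 h, 17.8 at 24 h and 28.8 at 72 h, all under the floor. Gzmg had 0.849 at 0 h, 2.39 at 24 h and 27.0 at 72 h, also under the floor throughout. These 3 genes had their highest value at 72 h and their lowest at 0 h. For Gzmb and Gzmg all values lie where the technical error is the larger one given above. Gzmf had 1.43 at 0 h, 3.08 at 24 h and 0.716 at 72 h, and its lowest value was that at 72 h. Gzma, the member on chromosome 13, had 34.6 at 0 h, 11.6 at 24 h and 16.5 at 72 h, and was the one member with its highest value at 0 h. Against 0 h, Gzma was at least 1.17-fold lower at 24 h and at 72 h, again a bound too low for a call.

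By gene, 0 of the 7 members were called at 24 h against 0 h in either direction, with 1 member measured on at least 1 of these arrays. Over all 8439 genes measured in that comparison, 13.2% were higher and 9.22% lower. At 72 h against 0 h, 2 members were called higher (Gzmd and Gzme) and 0 lower, with 4 measured, beside 12.5% higher and 12.8% lower among 8558 genes. At 72 h against 24 h the same 2 were higher and 0 lower, with 3 measured, beside 6.92% higher and 10% lower among 8391 genes. The comparisons at 72 h share an array, and the members were chosen from it, so nothing is read from these counts against the background. Among the genes called in the series, the share that was higher depended on the scaling. For 24 h against 0 h it was 58.8%, with 91.3% on the deposited scale, 46.9% after quantile normalization and 42.2% after trimmed mean scaling. For 72 h against 0 h it was 49.4%, with 86.8% on the deposited scale, and for 72 h against 24 h 40.9%, with 30.8% after scaling to hybridization controls. Gzmd and Gzme were called higher at 72 h under each of these scalings.

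The course of Gzmd, dark for a day and then bright, was looked for among all genes. Of 3954 genes at or under the floor at both 0 and 24 h, 306 were above it at 72 h and 60 were at least 2-fold above it, Gzmd and Gzme among them. Without a floor, 4 of the 7 members (Gzmb, Gzmc, Gzmd and Gzmg) had signals in the order 0 h, 24 h, 72 h from low to high, an order that 17.5% of all 12393 genes had.

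Around the cluster, the strong 72 h signal was found on the probe sets annotated to Gzme and Gzmd. Whether both genes gave it cannot be told from these probe sets. Gzmn, the remaining gene of the cluster, had 3.66 at 0 h, 1.63 at 24 h and 0.801 at 72 h. Next to Gzme lie Ctsg, which encodes the neutrophil protease cathepsin G, and Mcpt8, a protease gene of basophils. Ctsg had 168 at 0 h, 90.9 at 24 h and 10.5 at 72 h, at least 3.07-fold lower at 72 h than at 24 h. Mcpt8 had 4.01 at 0 h, 12.5 at 24 h and 87.7 at 72 h, at least 2.97-fold higher at 72 h than at 24 h. Mcpt8 was the one gene called higher at 72 h against 24 h among the 12 genes with a probe set within 8 protein-coding genes on either side. Ctsg and Pspc1 were called lower. Over all measured genes, 6.92% were higher and 10% lower in that comparison, and nothing is read from these counts. The chymase and mast cell protease genes Cma1, Mcpt1, Mcpt2 and Mcpt4 were under the floor on all arrays. Beyond Gzmb, Atp12a and Rnf17 were under the floor on all arrays, and Parp4, Mphosph8, Pspc1 and Zmym5 were above it on all arrays with none higher at 72 h.

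**Figure D2:**
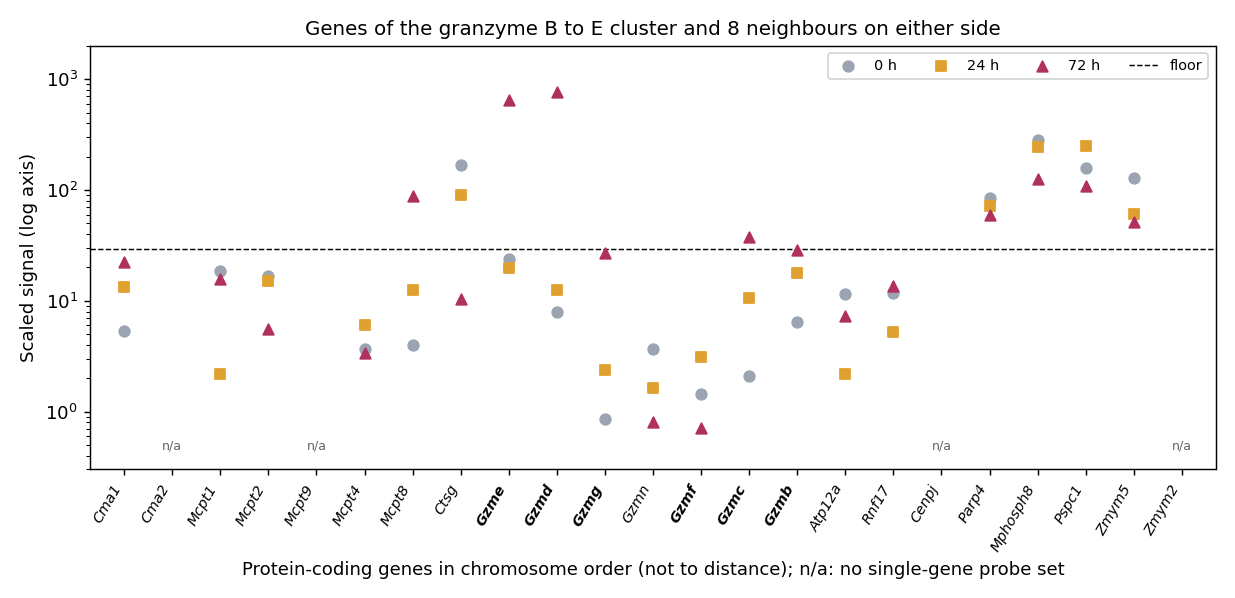
Scaled signal (log axis) at 0, 24 and 72 h of the protein-coding genes from Cma1 to Zmym2 in chromosome order, not drawn to distance, with the 6 members of the cluster in bold and the floor of 29.6 dashed. The probe sets of Gzme and Gzmd stand out at 72 h with 645 and 765. Mcpt8 reaches 87.7, and Ctsg has its lowest value at 72 h.

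The granzymes outside the selected set had no signal above the floor. Gzmk, a tryptase-like granzyme, had 3.21 at 0 h, 22.8 at 24 h and 16.0 at 72 h. Gzmm, which cuts after methionine or leucine, had 15.3 at 0 h, 8.53 at 24 h and 11.6 at 72 h.

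Among genes whose proteins package and mature granzymes, 5 of 11 measured were lower at 72 h than at 0 h and 2 were higher. Over all measured genes 12.8% were lower and 12.5% higher. Prf1, which encodes perforin, had 32.0 at 0 h, 32.6 at 24 h and 32.0 at 72 h by probe set 1451862_a_at, just above the floor, and its other probe set was under the floor on all arrays. Srgn, which encodes serglycin, had 1304 at 0 h, 689 at 24 h and 356 at 72 h, 3.67-fold lower at 72 h than at 0 h. Ctsc, which encodes the dipeptidyl peptidase that removes the pro-peptide of granzymes, had 5338 at 0 h, 4044 at 24 h and 1817 at 72 h. It was 2.94-fold lower at 72 h than at 0 h, a call lost on the deposited scale. Ctsh, another aminopeptidase able to process pro-granzyme B, was 6.02-fold lower, and Lamp1, a membrane protein of lysosomes and cytotoxic granules, 5.15-fold lower. Gnptab, a subunit of the enzyme that starts the mannose 6-phosphate tag by which granzymes A and B are sorted, had 226 at 0 h, 788 at 24 h and 1971 at 72 h, 8.74-fold higher at 72 h than at 0 h on the probe set shown and higher on all 3 of its probe sets. The 11 measured genes had a median log2 difference of -0.38 at 72 h against 0 h, beside -0.01 over all measured genes. On the deposited scale that median was 0.39, with 3 higher and 3 lower. At 72 h against 24 h, 1 was higher and 3 were lower (median -0.42 beside -0.14), beside 6.92% and 10% of all measured genes.

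Among the serpins, a family that holds inhibitors of granzymes, 2 were lower and none was called higher at 72 h against 0 h, while at 24 h against 0 h 1 of 5 measured was higher and 2 were lower. Serpinb9, which encodes the mouse inhibitor of granzyme B, had 98.8 at 0 h, 19.6 at 24 h and 40.4 at 72 h, 2.44-fold lower at 72 h than at 0 h. Serpinb1a, an inhibitor of neutrophil proteases, had 79.8 at 0 h, 28.1 at 24 h and 2.11 at 72 h, at least 2.70-fold lower. Both calls were lost on the deposited scale. Serpinb6b had 21.0 at 0 h, 71.8 at 24 h and 55.2 at 72 h. It was called higher at 24 h against 0 h, at least 2.43-fold, and at 72 h it was at least 1.87-fold higher than at 0 h, a bound short of a call. Serpinb6a had 1716 at 0 h, 1179 at 24 h and 1568 at 72 h, within 2-fold in each comparison. Of 4 measured genes of this list 0 were higher and 2 lower at 72 h against 0 h (median -0.71, and 0.06 on the deposited scale, with 1 higher and 0 lower). At 72 h against 24 h none of the 4 was called. Over all measured genes, 12.5% were higher and 12.8% lower at 72 h against 0 h (median -0.01). At 24 h against 0 h these shares were 13.2% and 9.22%.

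**Figure D3:**
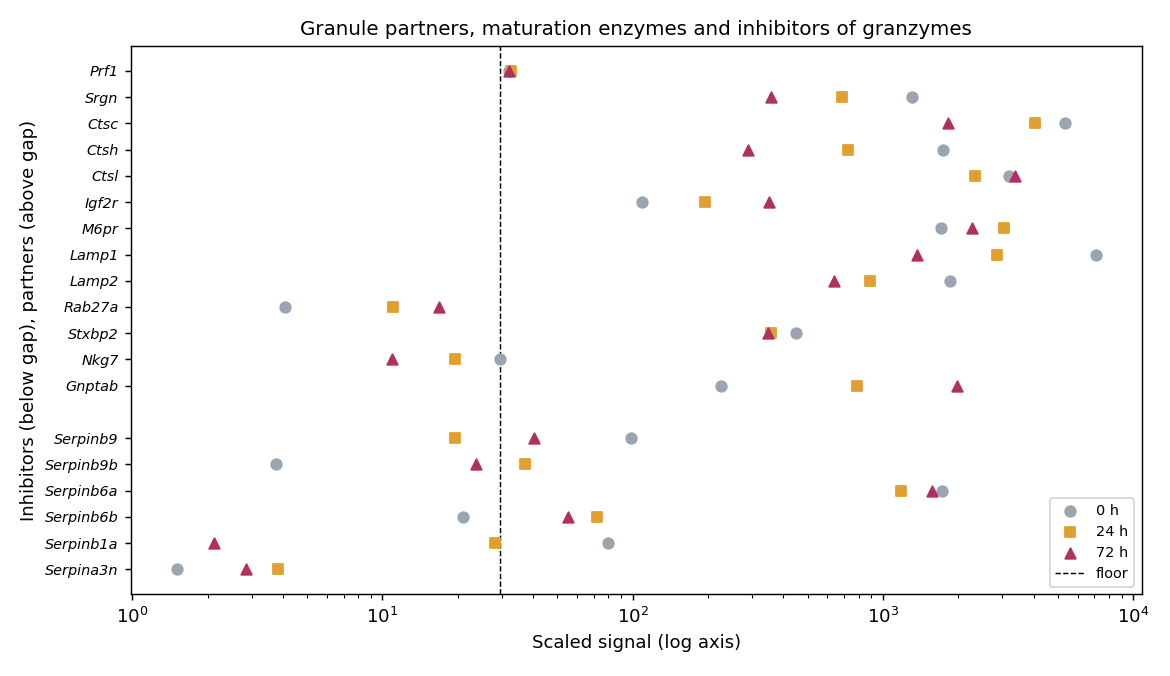
Scaled signal (log axis) at 0, 24 and 72 h of 13 granule and maturation genes (upper rows) and 6 serpins (lower rows), with the floor of 29.6 dashed. Prf1 stays at the floor at 32.0 to 32.6, Srgn and Ctsc have their lowest values at 72 h (356 and 1817), and Gnptab its highest (1971).

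Known substrates and effectors of granzymes went both ways. Lmna, the nuclear lamin A gene, had 380 at 0 h, 3307 at 24 h and 1861 at 72 h, 4.90-fold higher at 72 h than at 0 h on this probe set and higher on 2 of its 4. Fn1, fibronectin, had 692 at 0 h, 1031 at 24 h and 2717 at 72 h, 3.93-fold higher at 72 h than at 0 h. Lmnb1, a B-type lamin gene, had 165 at 0 h, 621 at 24 h and 147 at 72 h, 4.22-fold lower at 72 h than at 24 h. Hmgb2, a chromatin protein of the granzyme A target complex, had 685 at 0 h, 1209 at 24 h and 288 at 72 h, 4.20-fold lower at 72 h than at 24 h. Of 16 measured genes 3 were higher and 2 lower at 72 h against 0 h (median 0.10, with a sign that turned after quantile or trimmed mean scaling, and 6 higher and 0 lower on the deposited scale). At 72 h against 24 h, 2 of 15 were higher and 5 lower (median -0.83). Over all measured genes, 12.5% were higher and 12.8% lower at 72 h against 0 h (median -0.01). At 72 h against 24 h these shares were 6.92% and 10% (median -0.14).

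Transcription factors linked to granzyme genes in lymphocytes or to osteoclast formation went both ways. Tbx21 and Eomes, the T-box factors of cytotoxic lymphocytes, were under the floor on all arrays. Id3, an inhibitor of E proteins, had 88.0 at 0 h, 61.4 at 24 h and 586 at 72 h, 9.55-fold higher at 72 h than at 24 h. Batf, an AP-1 family factor, had 196 at 0 h, 75.5 at 24 h and 25.6 at 72 h, at least 6.64-fold lower at 72 h than at 0 h. Nfatc1, the master factor of osteoclast formation, had 368 at 0 h, 1742 at 24 h and 1406 at 72 h, so it was high on the 24 h array, on which Gzmd was under the floor. Runx1 was 3.53-fold lower at 72 h than at 0 h by its brightest probe set, and none of its other 4 was called. Of 14 measured genes 3 were higher and 4 lower at 72 h against 0 h (median -0.37), beside 12.5% and 12.8% of all measured genes. On the deposited scale 5 were higher and 2 lower (median 0.13). Of 13 measured at 72 h against 24 h 1 was higher and 3 lower (median -0.31), beside 6.92% and 10%.

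Most markers of the lymphocytes in which granzymes are best known were under the floor at 72 h. Of 10 NK cell markers with a probe set, 3 exceeded the floor at each earlier time and 2 at 72 h. The signals of all 10 summed to 202 (0 h), 209 (24 h) and 180 (72 h). Each sum of a list, here and below, includes values under the floor. Ncr1, Klrd1, Klrk1 and Nkg7 were under the floor at 72 h. Those above it were Prf1 and Cd244a, a signalling receptor also found on myeloid cells. Cd244a had 29.2 at 0 h, 54.7 at 24 h and 67.4 at 72 h. It was called higher at 72 h against 0 h on this probe set, and its other was not called. Of 13 T cell markers, 4 exceeded the floor at 0 h and 3 at each later time, with summed signals of 674 at 0 h, 362 at 24 h and 880 at 72 h. Genes of the T cell receptor complex, Cd3d, Cd3e, Cd3g and Cd247, and the co-receptor genes Cd8a and Cd8b1 were under the floor on all arrays. The largest parts of the sum at 72 h were those of Lat, a membrane adaptor of T cell receptor signalling, with 185 at 0 h, 130 at 24 h and 511 at 72 h, and of Zap70, the kinase of that pathway. Zap70 had 143 at 0 h, 94.1 at 24 h and 176 at 72 h by its brighter probe set, and its other was under the floor on all arrays. Cd5 had 4.30 at 0 h, 55.7 at 24 h and 133 at 72 h, Cd28 had 195 at 0 h, 12.2 at 24 h and 15.7 at 72 h, and Cd4 had 60.3, 5.42 and 5.69 at these times. Of 5 measured T cell markers 2 were higher and 2 lower at 72 h against 0 h (median 0.30), and of 3 measured at 72 h against 24 h 2 were higher and 0 lower (median 1.26). Of 4 measured NK cell markers 1 was higher at 72 h against 0 h and of 3 measured at 72 h against 24 h none was called. Over all measured genes, 12.5% were higher and 12.8% lower at 72 h against 0 h. At 72 h against 24 h these shares were 6.92% and 10%.

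Other blood cells that can carry granule proteases gave mixed values. Of 11 mast cell and basophil markers, 2 exceeded the floor at each earlier time and 3 at 72 h, with summed signals of 169 at 0 h, 157 at 24 h and 260 at 72 h. Mcpt8 made up 87.7 of the last sum and Tpsab1, a tryptase gene, 54.4, while Cpa3, Fcer1a and Ms4a2 were under the floor on all arrays. By its brighter probe set Gata2 was above the floor on all arrays, with 46.6 at 0 h, 34.1 at 24 h and 49.9 at 72 h. Kit, by its brighter probe set, had 35.9 at 0 h and 30.7 at 24 h, and was under the floor at 72 h. All 11 neutrophil and granulocyte precursor markers were lower at 72 h than at 0 h (median -3.52), beside 12.8% of all measured genes. Their summed signals were 18658 at 0 h, 13208 at 24 h and 1387 at 72 h. Of 5 plasmacytoid dendritic cell markers, 2 were above the floor at each time, and the sums were 621 at 0 h, 390 at 24 h and 185 at 72 h. Of 6 B cell markers, 2 exceeded the floor on the 0 h array, 0 on the 24 h array and 1 on the 72 h array. The sums were 144 at 0 h, 96.5 at 24 h and 89.3 at 72 h, and that at 24 h holds only values under the floor. What part these cell types have in the Gzmd signal was not tested beyond these levels. The osteoclast markers had sums of 3351 at 0 h, 10202 at 24 h and 37993 at 72 h. At 24 h against 0 h, where Gzmd was under the floor on both arrays, 6 of 10 measured osteoclast markers were higher, beside 13.2% of all measured genes. Itgb3, Oscar, Clcn7 and Tcirg1 were not called in that comparison, and Calcr, like Gzmd, was under the floor on both arrays. The macrophage markers had sums of 33476 at 0 h, 11545 at 24 h and 16344 at 72 h.

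**Figure D4:**
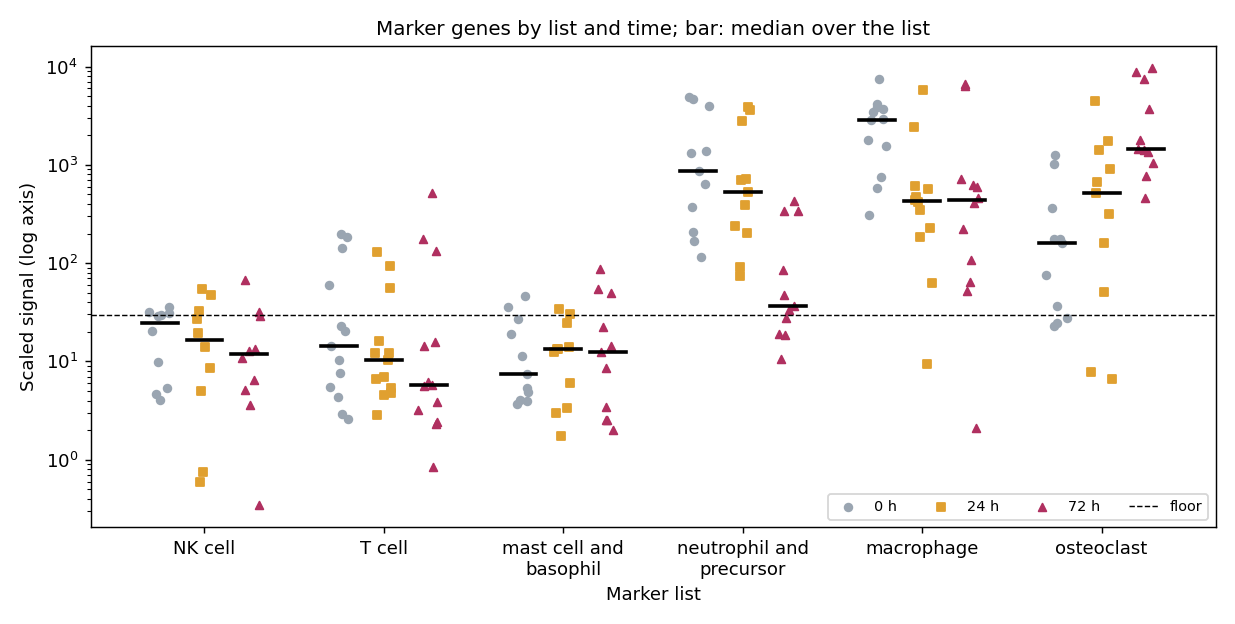
Scaled signal (log axis) of each marker gene at 0, 24 and 72 h in 6 marker lists, with the median of each list as a bar and the floor of 29.6 dashed. The medians of the NK cell, T cell and mast cell lists lie under the floor at all times, those of neutrophil markers are lowest at 72 h, and those of osteoclast markers are highest at 72 h.

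The genes with a course most like that of Gzmd were found by the distance between their floored log2 differences (24 h against 0 h and 72 h against 24 h) over the 3 arrays. They were Klra17 (distance 0.23), Gzme (0.25), Itgb3 (0.32), Rcan2 (0.57) and Calcr (0.72). Klra17, which encodes a lectin-like receptor, had 34.4 at 0 h, 29.0 at 24 h and 725 at 72 h. Itgb3, the beta chain of the osteoclast vitronectin receptor, had 36.9 at 0 h, 6.70 at 24 h and 774 at 72 h. Rcan2, a regulator of calcineurin, had 1.45 at 0 h, 42.4 at 24 h and 937 at 72 h. Calcr, the calcitonin receptor that marks mature osteoclasts, had 22.8 at 0 h, 7.84 at 24 h and 463 at 72 h. All 5 were bright at 72 h and near or under the floor at both earlier times. Since most early values were under the floor, the distances compare bounds for these genes, and 3 arrays leave many genes with like courses.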

How the data were processed

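The authors' deposited table gives each probe set a linear microarray intensity per array, made with MAS5 per the submitters' processing notes; its version and any detection calls are not given in the sources used here. Per the labels' protocols, 5 µg of total RNA gave biotinylated cRNA. Of 22690 probe sets, 64 controls were left out of levels and counts. Names came from a platform annotation: 20380 probe sets had 1 gene symbol, 691 several and 1555 none, and 20351 matched a RefSeq identifier (GRCm38.p6).

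Log2 signals were centred on each array's median and floored at the 40th percentile (29.6, or 4.89 on the log2 scale). Each gene was read from its brightest probe set by mean log2 signal among those with 1 symbol, counted as measured in a comparison if either array exceeded the floor, and called at a log2 difference of 1. The technical error is the SD of the difference between a gene's 2 brightest probe sets, divided by the square root of 2. The code was tested on simulated data. Python 3.11.15, pandas 2.3.3, numpy 2.4.6, Biopython 1.88 (global alignments) and matplotlib 3.10.9 were used.

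Members and the 14 gene lists were chosen with earlier results of these data known. All members and their probe sets are named. In each list at most 4 genes are named by the largest difference at 72 h, besides genes given for their role or position, as defining markers, or as part of a sum, some of them chosen after their values were seen. Motifs were chosen with the sequences in view. Alternatives covered scaling, floor and choice of probe set.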

Additional observations from a re-analysis of the deposited data

How the results depend on the processing

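Gzmd was called higher at 72 h against both earlier times under all 10 alternatives, with log2 differences of 3.05 to 6.59 against 0 h and 3.05 to 5.94 against 24 h. Gzme was called in the 9 alternatives that gave it a value (2.80 to 4.96 and 2.80 to 5.04), and had none without _x_at and _s_at probe sets, which left 1 member higher at 72 h in each comparison. The scalings (deposited, quantile, 2% trimmed mean, which moved the median by -0.20 and -0.13 at 24 and 72 h, and hybridization controls), the floor at the 60th percentile, the mean over probe sets and, added after seeing the data, the shared probe set given to both genes changed no count of called members. Lower floors did. With the floor at the 20th percentile (8.37), 1 member was higher (Gzmb) and 1 lower (Gzma) at 24 h against 0 h, beside 13.5% and 11.9% of all genes. At 72 h against 0 h, 5 were higher (Gzmb, Gzmc, Gzmd, Gzme and Gzmg) and 1 lower (Gzma), beside 13.5% and 15%, and at 72 h against 24 h 4 were higher (Gzmc, Gzmd, Gzme and Gzmg), beside 9.03%. With no floor the counts were 4 higher (Gzmb, Gzmc, Gzmf and Gzmg) and 1 lower at 24 h against 0 h (16.3% and 15.2% of all genes), 5 and 1 at 72 h against 0 h (16% and 18.4%), and 4 and 1 (Gzmf) at 72 h against 24 h (12% and 15.3%). Each added call has at least 1 of its 2 signals under the 40th percentile. No paired analysis was possible because each time has 1 array. The dimness of the 0 h and 24 h signals limits the size of the Gzmd change to a lower bound.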
